A study of Mus musculus with 12 samples.

Results

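A group of 10 genes of glycolysis and the response to low oxygen was followed in mouse skin treated with a miR-29b mimic or a miR-29 inhibitor: Slc2a1, Hk2, Pfkfb3, Pfkfb4, Pgk1, Ldha, Car9, Bnip3, Egln3 and Adm. They were chosen by name as textbook genes of both pathways, with earlier results of these data known. Every non-control probe carrying a gene name among the 10 was taken, which gave 18 of the 39429 distinct probes on the array. Of these, 17 probes passed the filter on dim signal, and all 10 genes were tested among 20493 genes.

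The skin came from male C57BL/6 mice of about 8 weeks, with 3 arrays in each of 4 groups described as biological replicates. Incised skin carried a sutured incision 1 cm long and was injected intradermally 72 h after wounding, either with 100 nmol of a miR-29b mimic (a synthetic RNA that stands in for the microRNA) or with PBS, the vehicle. Intact skin was injected with 100 nmol of antimiR-29, an inhibitor of the microRNA, or with PBS. All skin was collected 24 h after injection, so the mimic was given only to incised skin and the inhibitor only to intact skin, and agent and skin state cannot be told apart between these groups. Each value is a log2 ratio of skin RNA (Cy5) over a common mouse reference RNA (Cy3) on the same array, so a value of a single probe says how the skin stood against that reference, and only differences between groups of the same probe are compared.

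When oxygen falls, prolyl hydroxylases stop marking the alpha subunits of hypoxia-inducible factor (HIF) for destruction, and the stabilised factor binds a short core sequence in the regulatory regions of genes that raise glucose uptake, glycolysis, pH control, mitophagy and vessel growth. Wounded skin is known for low oxygen at the wound and for raised glycolysis in keratinocytes and infiltrating cells. The miR-29 family is best known for repressing collagen and other matrix genes, through a seed that its members share.

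The mature strands of the family are shown because the mimic and the inhibitor act through this sequence. Bases 2 to 8, the seed, are in capitals, and the sequences are those of RefSeq on GRCm38.p6.
miR-29a-3p: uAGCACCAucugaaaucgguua
miR-29b-3p: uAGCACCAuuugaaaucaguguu
miR-29c-3p: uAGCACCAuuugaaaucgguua
The seed was identical in all 3 strands.

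All 10 genes matched a RefSeq entry in the promoter table, with 12 promoters in all, since Ldha and Pfkfb3 have 2 starts each. The 250 bases before the start are shown for the 4 genes that were higher in incised than in intact skin under PBS, with the HIF core in capitals, searched as ACGTG and GCGTG on both strands (so CACGT and CACGC also mark it) with overlaps allowed.
Slc2a1 (chr4:119108495-119108744, plus strand): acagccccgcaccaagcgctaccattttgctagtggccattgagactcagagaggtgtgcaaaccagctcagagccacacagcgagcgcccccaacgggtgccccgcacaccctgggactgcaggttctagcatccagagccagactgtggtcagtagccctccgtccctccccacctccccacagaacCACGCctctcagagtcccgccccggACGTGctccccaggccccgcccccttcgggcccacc
Pfkfb4 (chr9:108991652-108991901, plus strand): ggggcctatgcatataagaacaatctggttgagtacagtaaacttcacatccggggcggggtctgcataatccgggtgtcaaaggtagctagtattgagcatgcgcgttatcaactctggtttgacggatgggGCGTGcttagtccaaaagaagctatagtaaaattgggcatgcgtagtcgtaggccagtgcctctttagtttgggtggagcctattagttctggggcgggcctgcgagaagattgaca
Car9 (chr4:43506776-43507025, plus strand): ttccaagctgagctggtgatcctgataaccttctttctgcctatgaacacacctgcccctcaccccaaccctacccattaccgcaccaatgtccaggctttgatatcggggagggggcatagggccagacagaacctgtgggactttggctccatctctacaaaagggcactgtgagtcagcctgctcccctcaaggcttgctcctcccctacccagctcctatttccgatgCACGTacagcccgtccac
Egln3 (chr12:54203875-54204124, minus strand): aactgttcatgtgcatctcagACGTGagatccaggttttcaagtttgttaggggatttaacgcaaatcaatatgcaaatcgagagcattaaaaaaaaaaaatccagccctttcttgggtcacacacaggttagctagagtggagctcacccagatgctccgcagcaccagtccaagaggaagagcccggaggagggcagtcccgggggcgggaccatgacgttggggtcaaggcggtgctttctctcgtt
Car9 had its single core 18 bases before the start, Slc2a1 had cores at 61 and 36 bases, Pfkfb4 had 1 at 117 bases and Egln3 had 1 at 229 bases. In windows of 300 bases (250 before and 50 after the start), ACGTG was found in 9 of the 12 promoters (75%), against 19.6% of 32851 promoters of all genes, and GCGTG in 7 of 12 (58.3%), against 32.4%. Either core was found in 12 of 12, against 43.8%. The genes not called for the incision had cores too. There were 7 and 2 at the Ldha starts, 4 and 1 at the Pfkfb3 starts, 5 for Bnip3 and 2 each for Pgk1, Hk2 and Adm. The genes were picked as known HIF targets, so these shares describe the choice, and a match is a run of letters and not a measured binding site.

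On every array, between 65.7% and 73.9% of probes were well above background in the skin channel. No non-control spot was flagged as saturated in that channel, and saturation in the reference channel was not examined. Arrays of a group resembled each other, with a median correlation to their own group of 0.939 or more over genes except for array 3 of intact PBS skin, at 0.921. All 7 keratinocyte markers passed the filter on dim signal. The file names place the arrays on 3 slides, with incised PBS skin on slide 1, intact PBS skin on slides 2 and 3, and no slide holding both PBS groups. In RNA from whole skin, fewer cells of a type and less RNA per cell cannot be told apart.

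Incision under PBS was the comparison with changed genes. Slc2a1, Pfkfb4, Car9 and Egln3 were higher in incised than in intact PBS skin, between 1.35-fold and 2.1-fold, and the groups did not overlap for any of them. These 4 of 10 genes passed an adjusted p of 0.05 in limma's moderated test, where 15.4% of 20487 genes did (9.86% higher and 5.56% lower), and no gene of the 10 was lower at that threshold. The groups did not overlap for 4 of 10 genes, all higher, against 35.2% of all genes (19.7% higher and 15.4% lower). The median log2 fold change was 0.24 over the 10 genes and 0 over all genes.

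Slc2a1 encodes GLUT1, the glucose transporter that lets sugar into the cell, and was read by 1 probe at mm9 chr4:118809864-118809923. Its log2 ratios were -1.23, -0.71 and -0.77 in incised PBS skin, against -1.58, -1.61 and -1.93 in intact PBS skin. Every incised array lay above every intact array, and the difference was 0.80 ± 0.19 on the log2 scale (SE, n = 3 arrays a group), 1.74-fold, with a limma adjusted p of 0.018. Over the 4 groups its mean was highest in incised mimic skin (-0.75 ± 0.35, SD) and incised PBS skin (-0.90 ± 0.29), next in intact antimiR skin (-1.36 ± 0.13) and lowest in intact PBS skin (-1.70 ± 0.19). The incised groups overlapped with each other, and the lowest incised array, at -1.23, was only just above the highest intact one, at -1.28.

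Pfkfb4 encodes a kinase and phosphatase that sets the level of fructose 2,6-bisphosphate, an activator of phosphofructokinase, and its probe lies at chr9:108934652-108934711. It had log2 ratios of 1.95, 1.85 and 1.98 in incised PBS skin, against 1.63, 1.51 and 1.34 in intact PBS skin. The spread was narrow in both groups, and the difference of 0.43 ± 0.10 (1.35-fold) had an adjusted p of 0.018 in limma. A second Pfkfb4 probe, at chr9:108910455-108910514, was well above background on 1 of 12 arrays, which was mimic-treated, and was not tested.

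Car9 encodes carbonic anhydrase IX, a membrane enzyme that keeps the cell's pH when acid is made by glycolysis, and its probe lies at chr4:43526518-43526577. Its log2 ratios were -1.18, -0.64 and -1.08 in incised PBS skin, against -1.58, -1.45 and -1.92 in intact PBS skin. All incised arrays were above all intact arrays, by 0.68 ± 0.17 (1.6-fold, limma adjusted p 0.026). Its mean was -0.90 ± 0.21 with the mimic and -0.97 ± 0.28 with PBS in incised skin, and -1.70 ± 0.18 with antimiR and -1.65 ± 0.24 with PBS in intact skin (SD, n = 3 each), so within each kind of skin the means lay closer than the spread of the arrays.

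Egln3 encodes PHD3, a prolyl hydroxylase that marks HIF and is itself a HIF target. Its brighter probe, at chr12:55280953-55281012, had log2 ratios of 0.28, 0.52 and 0.56 in incised PBS skin, against -0.71, -0.45 and -0.70 in intact PBS skin. No array of one group came near the other, and the difference of 1.07 ± 0.32 (2.1-fold) had a limma adjusted p of 0.045. The second Egln3 probe gave 0.99 ± 0.28 and was also called when all probes were tested (limma adjusted p 0.035), as were 15.4% of probes. The SE of Egln3 was wide beside the spread of its PBS groups because the fit shares one spread among 4 groups, and the antimiR group alone had an SD of 0.72.

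**Figure D1:**
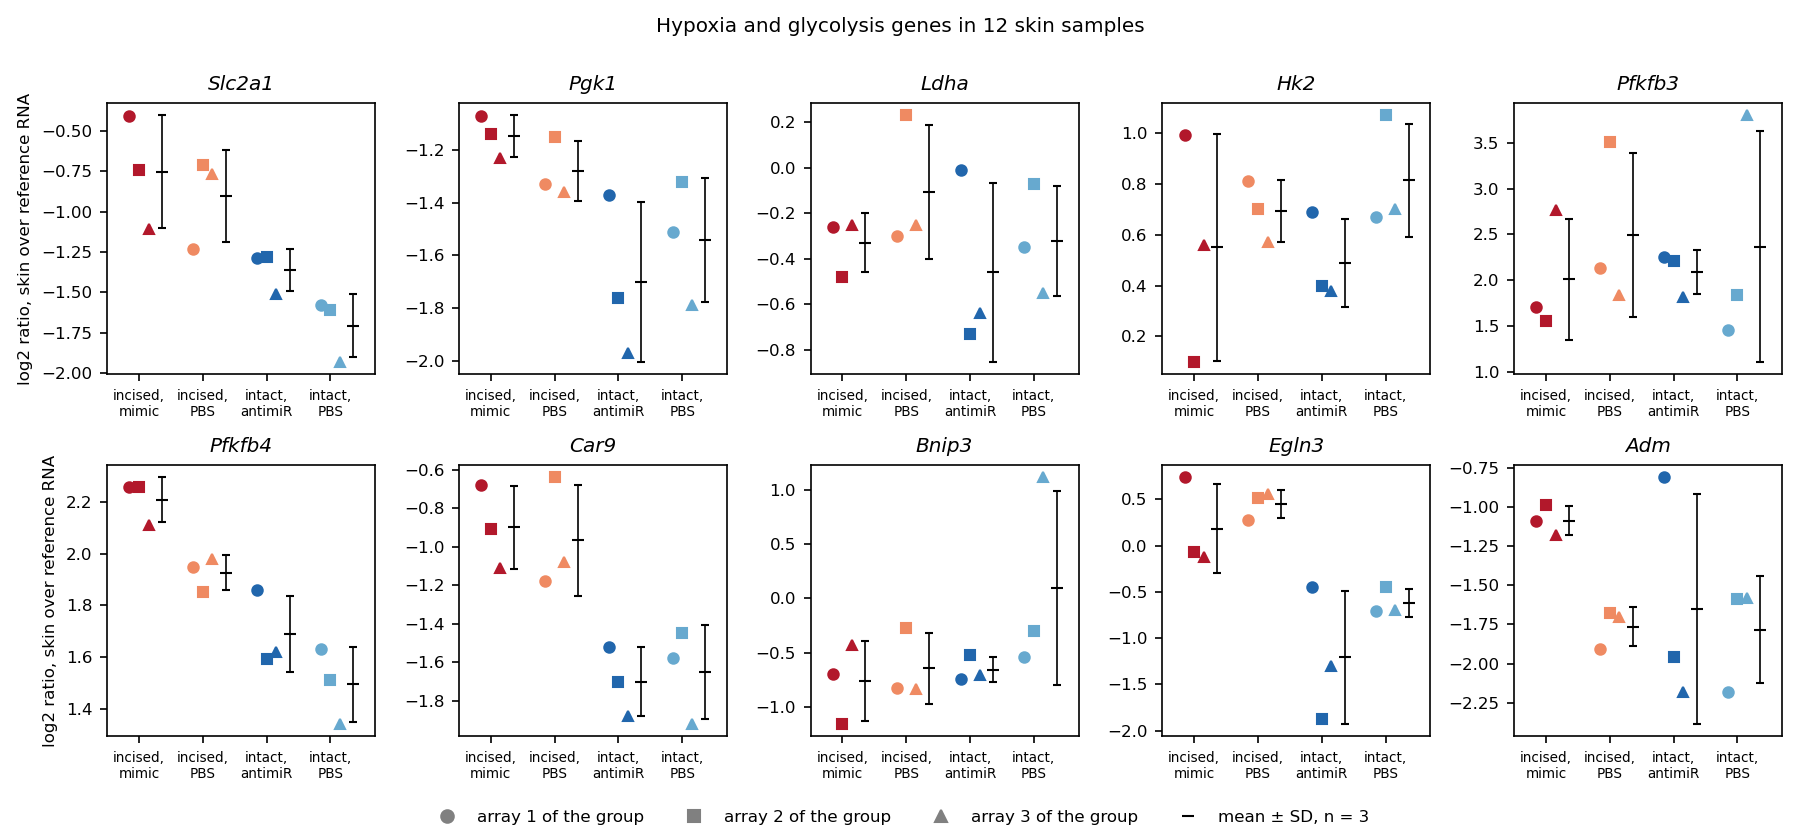
Log2 ratio of skin over reference RNA (y axis, each panel on its own scale) for the 10 genes in incised mimic, incised PBS, intact antimiR and intact PBS skin, 1 point an array and the mean ± SD of 3 arrays beside it. Slc2a1, Pfkfb4, Car9 and Egln3 are higher in incised than in intact PBS skin with no overlap, and Bnip3 and Pfkfb3 reach their highest values on array 3 of intact PBS skin, at 1.12 and 3.80.

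The other 6 genes did not pass the test in this comparison. Pgk1, which makes the first ATP of glycolysis, differed by 0.26 ± 0.16 (limma adjusted p 0.27), with log2 ratios of -1.33, -1.15 and -1.36 in incised PBS skin, against -1.51, -1.32 and -1.79 in intact PBS skin. Ldha, which turns pyruvate into lactate, differed by 0.21 ± 0.21 (adjusted p 0.51) and Hk2, which traps glucose as glucose 6-phosphate, by -0.12 ± 0.20 (adjusted p 0.73). Adm, the vessel-widening peptide adrenomedullin, differed by 0.02 ± 0.30 (adjusted p 0.97) and Pfkfb3, a kinase of the same family as Pfkfb4, by 0.13 ± 0.60 (adjusted p 0.91). Bnip3, a mitochondrial protein of mitophagy and cell death, differed by -0.74 ± 0.37 (adjusted p 0.2), the only one of the 10 with a difference below -0.5.

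These calls changed with single arrays and with the slide. Without array 3 of intact PBS skin none of the 4 was called, with Slc2a1 at 0.69, Pfkfb4 at 0.35, Car9 at 0.54 and Egln3 at 1.03 (limma adjusted p 0.052, 0.051, 0.074 and 0.095). Slc2a1 also missed the threshold without array 2 (0.70) or 3 (0.73) of incised PBS skin, Pfkfb4 without array 1 (0.42) or 3 (0.40) and Car9 without array 2 (0.52). Egln3 stayed between 1.02 and 1.16 but was called in 3 of 12 fits, those without mimic array 1 or antimiR array 1 or 2. With slide as a fixed block, the PBS groups are linked only through the mimic arrays. Mimic array 1 was the only one on the slide of incised PBS skin, so every blocked difference rests on that single array. In that fit 11 of 20487 genes were called and none of the 10. Slc2a1 was at 0.18, Pfkfb4 at 0.27, Car9 at 0.21 and Egln3 at 0.20 (limma adjusted p 0.82, 0.54, 0.78 and 0.90).

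Scores of macrophage, neutrophil and activated keratinocyte markers were higher in incised than in intact PBS skin, groups that share no slide. Marker calls were not examined with slide as a block. In limma's test over all genes, 5 of 8 macrophage, 2 of 8 neutrophil, and 2 of 6 activated keratinocyte markers were higher in incised than in intact PBS skin, where 15.4% of all genes were called. Of skeletal muscle and fibroblast markers, 2 of 10 and 1 of 8 were called higher, and their scores overlapped between the groups. The score used (the median over a list of each gene's log2 ratio minus its mean over the 12 arrays) was 0.21 to 0.42 for macrophages in incised PBS skin, against -1.05 to -0.16 in intact PBS skin. The neutrophil score was 0.20 to 0.39 in incised PBS skin, against -0.84 to -0.72 in intact PBS skin, and the activated keratinocyte score was 0.33 to 0.89, against -1.14 to 0.18. The muscle score was 0.19 to 0.34 in incised PBS skin, against 0.14 to 0.40 in intact PBS skin, and the fibroblast score was 0.07 to 0.21, against 0.11 to 0.22. The hair follicle score was 4.40 on array 2 of intact PBS skin, against -0.42 on array 1, -0.21 on array 3 and -0.47 to -0.10 in incised PBS skin. Hk2 had its highest value of the 12 arrays on that array 2, at 1.07. None of the hair follicle markers was called in this comparison. The part of all these cells in the higher Slc2a1, Pfkfb4, Car9 and Egln3, and in Hk2, was not tested.

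Among 22 other glycolysis and lactate genes, Pgam1, a phosphoglycerate mutase, rose by 0.54 ± 0.13 on the log2 scale (limma adjusted p 0.021) and Pfkfb2, another kinase of the Pfkfb family, fell by 0.45 ± 0.10 (adjusted p 0.014). These were the only called genes of that list, whose median was 0.11. Of 10 regulators of oxygen sensing, 1 was called and it was lower: Hif1an, which encodes the asparaginyl hydroxylase that blocks HIF's activation domain, differed by -0.42 ± 0.12 (adjusted p 0.039), and the list's median was -0.19. Hif1a itself differed by 0.43 ± 0.17 with an adjusted p of 0.11. Of 19 other HIF target genes tested, 4 were called higher and 0 lower, with a median of 0.36. Over all genes, 15.4% were called for the incision (9.86% higher and 5.56% lower), with a median of 0. Whether any of these lists departs from that share was not tested.

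Hmox1, the haem-degrading enzyme, differed by 1.15 ± 0.20 between incised and intact PBS skin (limma adjusted p 0.0051) and Plod2, a collagen lysyl hydroxylase, by 0.96 ± 0.18 (adjusted p 0.007). Ero1a, an oxidase of the endoplasmic reticulum, differed by 0.38 ± 0.09 (adjusted p 0.022). Hmox1 and Plod2 were called with any 1 of the 12 arrays left out. Ero1a was called in 8 of 12 such fits, Pgam1 in 9, Pfkfb2 in 11 and Hif1an in 5, with the highest adjusted p at 0.078, 0.078, 0.053 and 0.12, each reached without array 2 of incised PBS skin (0.35, 0.44, -0.37 and -0.38 on the log2 scale). Further losses came without incised PBS array 1 or intact PBS array 2 or 3 for Ero1a (0.34 to 0.39), incised PBS array 3 or intact PBS array 3 for Pgam1 (0.52 and 0.43), and incised PBS array 1 or 3, mimic array 3, intact PBS array 1 or 2 or antimiR array 2 for Hif1an (-0.49 to -0.37). With slide as a fixed block none of these 6 genes was called, although Hmox1 was at 1.12, Plod2 at 0.82 and Pfkfb2 at -0.39 (limma adjusted p 0.23, 0.32 and 0.35), near their values without the block, and Hif1an was further from 0, at -0.77 (0.2). Pgam1 was at 0.34 (adjusted p 0.54) and Ero1a at 0.10 (0.8). With Cy5 alone Ero1a was at 0.20 (adjusted p 0.24), and its call was also lost under 4 other alternatives.

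**Figure D2:**
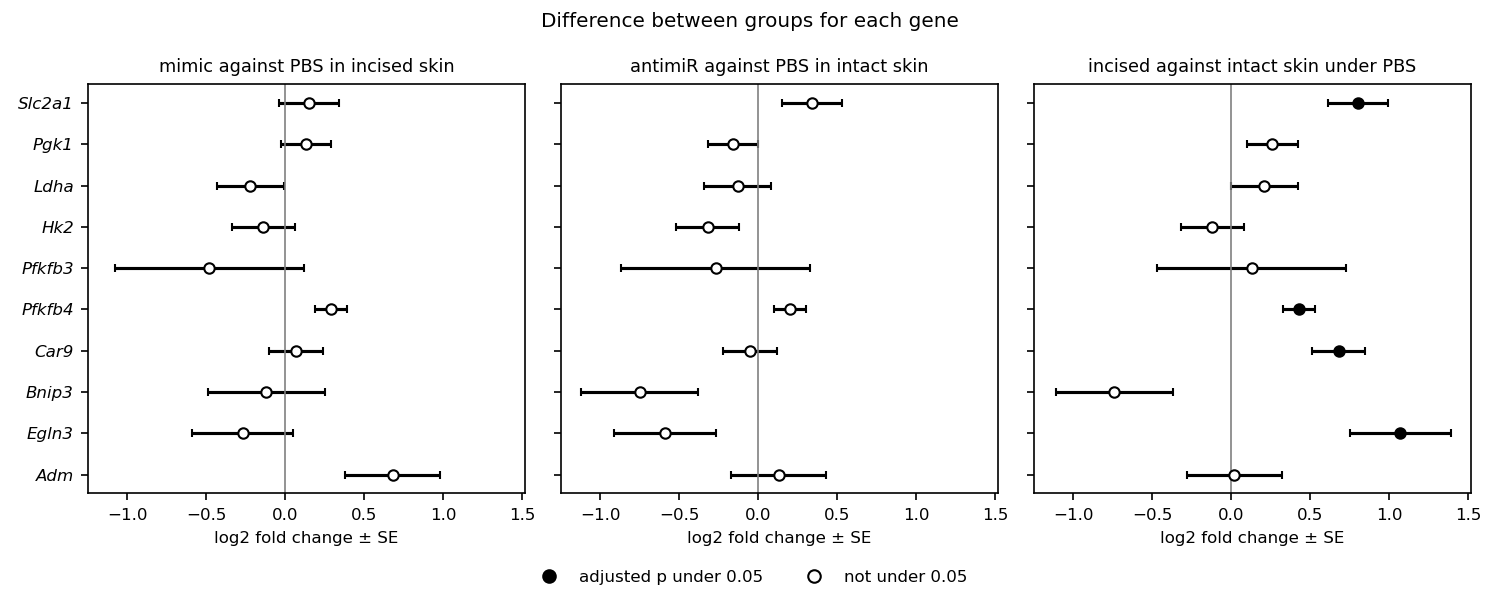
Log2 fold change ± SE (x axis) of each of the 10 genes (y axis) for the mimic in incised skin, the inhibitor in intact skin (each less its PBS group) and the incision under PBS, with filled points at a limma adjusted p under 0.05. Filled points appear only in the incision panel, for Slc2a1, Pfkfb4, Car9 and Egln3, and the bars of Pfkfb3 are the widest in all panels.

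With the miR-29b mimic none of the 10 genes passed an adjusted p of 0.05 in limma, where 0.591% of 20484 genes passed (0.205% higher and 0.386% lower). The smallest p-values were those of Adm and Pfkfb4, both with higher ratios in mimic-treated than in PBS-treated incised skin and the only genes of the 10 with an unadjusted p under 0.05, as for 2553 of all genes. The groups did not overlap for these 2 of 10 genes, against 24.2% of all genes (12.5% higher and 11.7% lower). The median log2 fold change was -0.02 over the 10 genes and 0 over all genes.

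Adm, read by 1 probe at chr7:117773088-117773147, had log2 ratios of -1.09, -0.99 and -1.18 in incised mimic skin, against -1.91, -1.68 and -1.70 in incised PBS skin. Each mimic array stood well above each PBS array, and the difference was 0.68 ± 0.30 (1.6-fold, limma p 0.043, adjusted p 0.38). In the shared fit the SE is set by the intact groups too, where Adm varied most (SD 0.74 with antimiR and 0.34 with PBS). In a fit of the incised groups alone the same difference had an SE of 0.10 and an adjusted p of 0.026. On slide 1, which held mimic array 1 and all 3 incised PBS arrays, the mimic array was 0.68 above the mean of the PBS arrays.

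Pfkfb4 had log2 ratios of 2.26, 2.26 and 2.11 in incised mimic skin, against 1.95, 1.85 and 1.98 in incised PBS skin. The mimic arrays were all higher, by 0.29 ± 0.10 (1.22-fold, limma p 0.017, adjusted p 0.27), and by 0.34 on slide 1. Its group means ran from high to low in the order incised mimic (2.21 ± 0.08, SD), incised PBS (1.92 ± 0.07), intact antimiR (1.69 ± 0.15) and intact PBS (1.49 ± 0.15), where neighbours in that order overlapped except the incised groups, since the lowest incised PBS array, at 1.85, was just under the highest antimiR array, at 1.86.

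The other 8 genes differed between mimic and PBS by -0.48 (Pfkfb3) to 0.15 (Slc2a1), with limma adjusted p from 0.74 to 0.94. On slide 1 the single mimic array stood on the other side of the PBS mean for Egln3 (0.28, against -0.27 in the fit of all arrays) and Hk2 (0.30, against -0.14), and the value was 0.49 for Slc2a1 and 0.29 for Car9. Slc2a1, with log2 ratios of -0.41, -0.74 and -1.11 in incised mimic skin, against -1.23, -0.71 and -0.77 in incised PBS skin, overlapped between the groups. Car9 had -0.68, -0.91 and -1.11 in mimic skin, against -1.18, -0.64 and -1.08 in PBS skin, and Egln3 had 0.74, -0.07 and -0.12 in mimic skin, against 0.28, 0.52 and 0.56 in PBS skin. For both genes the groups overlapped as well. Hk2 spread most within the mimic group, at 0.99, 0.10 and 0.56, against 0.81, 0.70 and 0.57 with PBS.

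None of the 22 other glycolysis genes, 10 oxygen-sensing regulators or 19 other HIF targets was called for the mimic, and their medians were -0.01, -0.10 and -0.05. The smallest p-values among the glycolysis genes belonged to the muscle forms of phosphofructokinase and phosphoglycerate mutase: Pfkm differed by -1.05 ± 0.20 (limma adjusted p 0.051) and Pgam2 by -1.37 ± 0.30 (adjusted p 0.079), and for both the mimic and PBS arrays did not overlap. Skeletal muscle markers differed in the same comparison, with 3 of 10 called lower and all 10 lower with no overlap, and their score was -0.44 to -0.12 in mimic skin, against 0.19 to 0.34 in PBS skin. The part of muscle RNA in Pfkm and Pgam2 was not tested. The macrophage score was 0.62 to 0.70 in mimic skin, against 0.21 to 0.42 in PBS skin, with no overlap. The neutrophil score was 0.79 to 0.97, against 0.20 to 0.39, also with no overlap. The neutrophil markers did not rise as a set, since 4 of 8 had a difference above 0 and 1 was called higher (list median 0.01). Of 8 macrophage markers 6 had a difference above 0 and 0 were called (list median 0.20). Of 8 fibroblast markers 3 were called lower (Pi16 by -1.60, Clec3b by -1.52 and Dpt by -0.83). The fibroblast score was -0.49 to -0.30 in mimic skin, against 0.07 to 0.21 in PBS skin. The part of these cells in Adm and Pfkfb4 was not tested. Among the regulators Arnt, the partner subunit of the HIF alpha chains, differed by -0.20 ± 0.10 (adjusted p 0.47) and Hif1an by -0.23 ± 0.12 (adjusted p 0.48). Among the HIF targets Hmox1 differed by 0.67 ± 0.20 (adjusted p 0.18) and P4ha2, a collagen prolyl hydroxylase, by -0.68 ± 0.21 (adjusted p 0.2).

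With the inhibitor none of the 10 genes passed an adjusted p of 0.05 in limma either, where 9.69% of 20480 genes passed (5.23% higher and 4.46% lower), and none had an unadjusted p under 0.05, as 4933 of all genes did. The median log2 fold change was -0.15 over the 10 genes and 0.01 over all genes. The groups did not overlap for 1 of 10, Slc2a1, against 25.8% of all genes (14.1% higher and 11.7% lower).

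Slc2a1 had log2 ratios of -1.29, -1.28 and -1.51 in antimiR-treated intact skin, against -1.58, -1.61 and -1.93 in intact PBS skin. The antimiR arrays were all higher, by 0.34 ± 0.19 (1.27-fold, limma p 0.096, adjusted p 0.3), and by 0.56 on slide 3, which held all antimiR arrays and 1 PBS array. Pfkfb4 had 1.86, 1.59 and 1.62 with antimiR, against 1.63, 1.51 and 1.34 with PBS, a difference of 0.20 ± 0.10 (adjusted p 0.28). In the authors' deposited table the Pfkfb4 difference was 0.78 with a limma adjusted p of 0.029.

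The differences of largest size were negative. Egln3 had log2 ratios of -0.45, -1.88 and -1.30 in antimiR skin, against -0.71, -0.45 and -0.70 in PBS skin, a difference of -0.59 ± 0.32 (limma adjusted p 0.29). Arrays 2 and 3 of the antimiR group were below all PBS arrays and array 1 was level with the highest. Adm had -0.81, -1.96 and -2.18 with antimiR, against -2.18, -1.59 and -1.58 with PBS, a difference of 0.13 ± 0.30 (adjusted p 0.84). Its antimiR array 1 was above every PBS array, and the other two lay between the PBS arrays or level with the lowest. Pgk1, at -1.37, -1.76 and -1.97, Ldha, at -0.01, -0.73 and -0.64, and Hk2, at 0.69, 0.40 and 0.38, also had antimiR array 1 as the highest of its group.

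Bnip3 was read by 3 probes, the brightest at chr7:146082640-146082699, with log2 ratios of -0.74, -0.52 and -0.71 in antimiR skin, against -0.54, -0.30 and 1.12 in PBS skin. The difference of -0.75 ± 0.37 (limma adjusted p 0.24) rested on array 3 of intact PBS skin, and without it the value was -0.23 for antimiR against PBS and -0.22 for incised against intact PBS skin. Blocking on slide moved the antimiR value to -1.78 with a limma adjusted p of 0.011, which is the antimiR mean less that 1 PBS array, the only PBS array on slide 3. Against that array Pfkfb3 was at -1.71 (-0.27 in the fit of all arrays), and the sign turned for Pgk1 (0.09), Ldha (0.09), Car9 (0.22) and Adm (-0.06).

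Of the other lists, 1 of 22 glycolysis genes, 1 of 10 regulators and 1 of 19 HIF targets were called for the inhibitor. Over all genes, 9.69% were called in this comparison (5.23% higher and 4.46% lower). Egln1, which encodes PHD2, the main oxygen sensor of the prolyl hydroxylases, differed by -0.61 ± 0.10 (limma adjusted p 0.005), at a mean of -0.76 ± 0.19 in antimiR skin and -0.16 ± 0.09 in PBS skin (SD, n = 3 each), and it was called with any 1 array left out, between -0.70 and -0.51. In a fit of the intact groups alone its adjusted p was 0.06. Hk1, the hexokinase of most tissues, was higher by 0.34 ± 0.09 (adjusted p 0.036), but the difference was 0.09 as a mean over its probes and 0 in the authors' deposited table. Ero1a differed by -0.36 ± 0.09 (limma adjusted p 0.034), and 5 of the 12 processing alternatives that gave it a value ended this call. The call of Hk1 was ended by 8 of 13. Hk1 was called in 5 of 12 fits that left out 1 array and missed the threshold without any antimiR array, intact PBS array 2 or 3, mimic array 1 or incised PBS array 1 (0.29 to 0.37). Ero1a was called in 6 of 12 and missed it without any antimiR array, intact PBS array 1 or incised PBS array 1 or 3 (-0.40 to -0.31). The list medians were -0.09 for glycolysis genes, -0.05 for regulators and 0.05 for HIF targets. In the same comparison 3 of 8 macrophage and 2 of 8 neutrophil markers were called higher and 2 of 10 skeletal muscle markers lower. Of 8 fibroblast markers Pdgfrb was called higher, by 1.28 ± 0.13 (limma adjusted p 0.00038). Pi16 (-0.69) and Dpt (-0.47) were lower with no overlap, though not called. Only 4 of 8 macrophage and 4 of 8 fibroblast markers had a difference above 0. The macrophage score overlapped, at -0.72 to 0.10 in antimiR skin, against -1.05 to -0.16 in PBS skin. So did the neutrophil score (-0.77 to 0.09, against -0.84 to -0.72) and the fibroblast score (0 to 0.57, against 0.11 to 0.22). The muscle score did not (-0.30 to 0, against 0.14 to 0.40). The part of these cells in Egln1, Hk1 and Ero1a was not tested.

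The mimic effect less the antimiR effect, tested as a contrast over all 4 groups, was called for none of the 10 genes, where 1.09% of 20475 genes were called by limma (0.625% higher and 0.464% lower). The median was 0.15 over the 10 genes and -0.02 over all genes, and none of the 10 had an unadjusted p under 0.05, as 2890 of all genes did. The values furthest from 0 were those of Bnip3 (0.63 ± 0.52) and Adm (0.55 ± 0.42), and the adjusted p of the 10 ran from 0.64 to 0.96.

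Of the genes with several probes above background, each gave the same sign from all its probes for the incision. The 3 Ldha probes differed by 0.21, 0.47 and 0.17 between incised and intact PBS skin, where the probe with 0.47 had an unadjusted limma p of 0.041 and an adjusted p of 0.14. The probe with 0.21, which stood for Ldha in the tests, shares a run of 20 bases with 1 probe of another gene name. The other Ldha probes share none. The Bnip3 probes gave -0.74, -0.55 and -0.47 in that comparison, and -0.75, -0.90 and -0.57 for antimiR against PBS. The Pgk1 probes gave 0.34 and 0.26 for the incision. The probe with 0.34 was dimmer, with values on 9 of 12 arrays and on 1 antimiR array. It is placed on chromosome 3 in the mm9 annotation, while the gene lies on X. The probe with 0.26, which stood for Pgk1 in the tests, is placed on X. It is annotated to a transcript described as a related sequence, so copies of Pgk1 elsewhere in the genome may share the signal of this gene. The dimmer Pfkfb3 probe, well above background on 10 of 12 arrays, gave 0.49 ± 0.34 where the brighter one gave 0.13 ± 0.60. Slc2a1, Hk2, Car9 and Adm had 1 probe each.

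**Figure D3:**
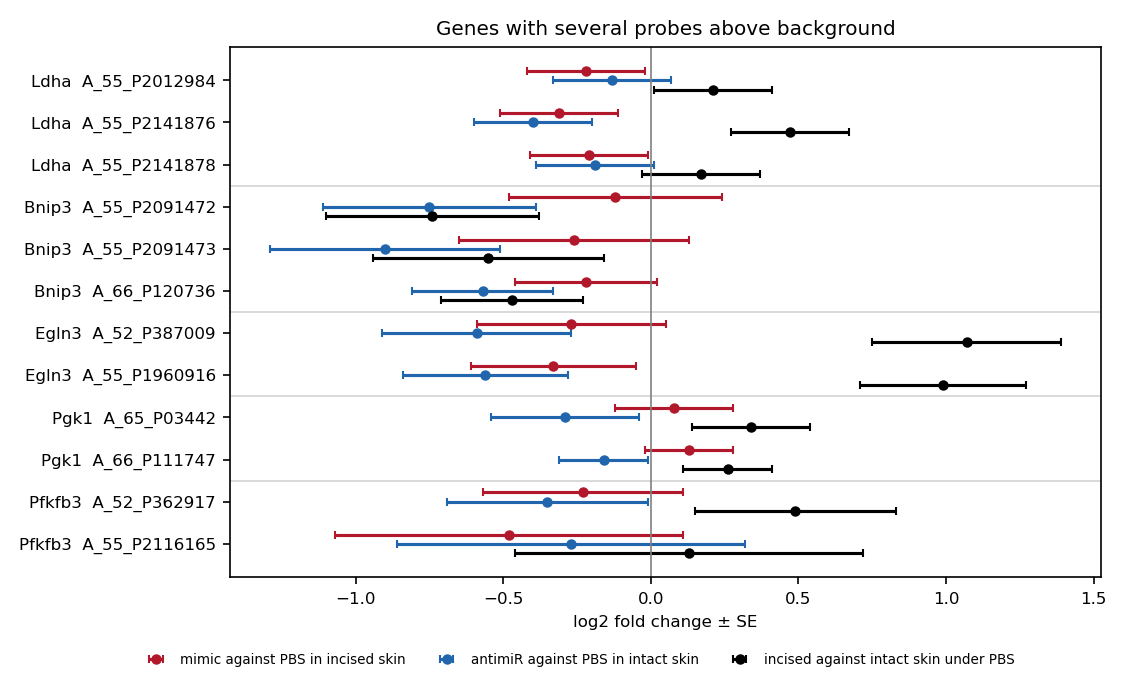
Log2 fold change ± SE (x axis) of each probe above background of Ldha, Bnip3, Egln3, Pgk1 and Pfkfb3 (y axis) in the comparisons of mimic with PBS, antimiR with PBS, and incised with intact skin under PBS. Both Egln3 probes lie near 1 for the incision, at 1.07 and 0.99, and all Bnip3 probes lie below 0 in all 3 comparisons. The antimiR point of Pgk1 probe A_65_P03442 rests on 1 antimiR array.

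Pfkfb3 and Bnip3 had single arrays far from the rest of their group. Pfkfb3 had log2 ratios of 1.71, 1.56 and 2.77 in incised mimic skin, 2.13, 3.51 and 1.84 in incised PBS skin, 2.25, 2.21 and 1.82 in antimiR skin and 1.46, 1.84 and 3.80 in intact PBS skin. Its highest 3 arrays, array 3 of intact PBS, array 2 of incised PBS and array 3 of the mimic, were also the highest 3 in the adipocyte score, at 0.89, 0.93 and 0.57, and the other 9 had scores of -0.84 to -0.02. Bnip3 was highest in its group on each of the same 3 arrays, at 1.12, -0.27 and -0.43. All 8 adipocyte markers were tested and none was called in any comparison. The part of fat tissue in Pfkfb3 and Bnip3 was not tested.

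**Figure D4:**
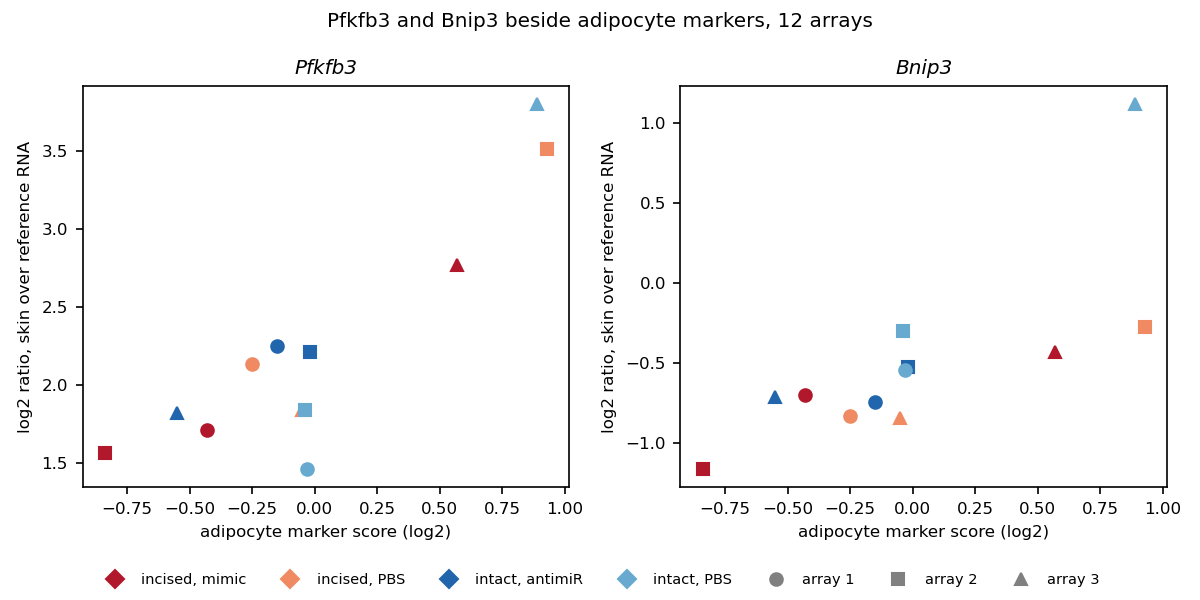
Log2 ratio of Pfkfb3 and of Bnip3 (y axes) against the adipocyte marker score of the same array (x axis, log2), 1 point for each of 12 arrays, with colours for the groups and shapes for the array number. The 3 arrays with scores of 0.57 to 0.93 have the highest Pfkfb3 values, 2.77 to 3.80, and 1 of them has the highest Bnip3 value, 1.12.

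The gene whose log2 ratios most resembled those of each member over the 12 arrays was sought among 15284 genes, and Pearson's r is given as a description of arrays that share a reference RNA and 4 group means. It was Mmp13, a collagenase, for Slc2a1 (0.957), Prelid2 for Car9 (0.966), Tgfb1, a growth factor, for Pfkfb4 (0.969), Myh3, an embryonic myosin, for Egln3 (0.959) and Sprr2g, a cornified envelope protein, for Pgk1 (0.965). Ldha was nearest to Tpi1 (0.895) and Hk2 to Gpi1 (0.873), which are both enzymes of glycolysis. Pfkfb3 was nearest to Mmd (0.962), Bnip3 to Bmi1 (0.956) and Adm to Defb3, an antimicrobial defensin (0.861), the lowest of the 10.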

How the data were processed

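Each of 12 two-colour Agilent arrays carried skin RNA in Cy5 and Agilent mouse universal reference RNA in Cy3, per the labels, and the deposited scanner files hold spot intensities written by Feature Extraction 11.5.1.1, per the file headers, which place probes on mm9. The scanner files also hold a log10 ratio of the processed signals, made by Feature Extraction per the file headers. The authors' deposited log2 table was used as an alternative, and it tracked the scanner log ratio of skin over reference, although its title names the dyes in the other order. Other steps of the authors are not given in the sources used here.

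Signals were corrected by normexp (offset 50) and normalized by loess within each array in limma 3.58.1 under R 4.3.3, without scaling between arrays. Control spots had weight 0, outlier-flagged spots were left out and spots of a probe were averaged. Probes well above background in Cy5 on at least 3 arrays and carrying a gene name were kept (27177 of 39429), and the probe of highest average intensity stood for a gene (20493 genes). A linear model of 4 group means over 12 arrays was fitted with lmFit and eBayes, with Benjamini-Hochberg adjustment over all genes, and a gene was called at an adjusted p under 0.05. Simulated data with known changes gave 85% of genes changed by 1 on the log2 scale and 97% of those changed by 2, in the incision comparison over 19460 genes. The simulated arrays were independent, with no slide effect and 100 genes changed by each size. These shares therefore do not cover the tie between slide and incision in the real arrays. The number of arrays limits the precision, and p-values measure the spread between arrays that the labels call biological replicates.

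The members, gene lists and cell markers were chosen with earlier results of these data known. From each list up to 4 called genes of smallest p were named in each comparison, or up to 2 where none was called. Hif1a falls outside this rule and was named after its value was seen. Mxi1 of the HIF target list was not above background. A called gene of that list is counted but its values are not reported here. Samples with equal replicate numbers in different groups did not deviate together (median correlation 0.01 over 18 pairs, against 0 over 36 pairs of unequal number). Alternatives covered background correction, signal, scaling, channel, table, filter, probe rule, samples in the fit, variance prior, slide, replicate number and left-out arrays.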

Additional observations from a re-analysis of the deposited data

How the results depend on the processing

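For the incision, 4 genes of the 10 were called in the fit reported here. Cy5 alone called 2, without Egln3 (limma adjusted p 0.08) and Pfkfb4 (0.22 on the log2 scale, against 0.43, adjusted p 0.48). The authors' deposited table called 2, without Car9 and Egln3, the fit of only the compared groups 2, without Car9 and Pfkfb4, slide as a random block (consensus correlation 0.11) 2, without Car9 and Egln3, and slide as a fixed block 0. Processed signals and no filter on dim probes called 3, without Egln3 (adjusted p 0.058 and 0.053), and eBayes with trend and robust 3, without Pfkfb4 (0.071). Leaving out 1 array at a time gave 0 to 4 called genes, with 0 without array 3 of intact PBS skin. Leaving out array 3 of intact PBS and array 2 of incised PBS together, an alternative chosen after seeing the adipocyte scores, gave 0, with Slc2a1 at 0.59, Pfkfb4 at 0.39, Car9 at 0.38 and Egln3 at 1.00. For the inhibitor, where 0 were called, 1 was called with the authors' deposited table (Pfkfb4) and 1 with slide as a fixed block (Bnip3). For the mimic, 1 was called with only the compared groups in the fit (Adm, adjusted p 0.026), and each array left out in turn gave 0 in the mimic, inhibitor and difference comparisons. The replicate number as a block (replicate block) gave 4 called genes of the 10 for the incision and 0 elsewhere, and it ended the calls of Hif1an (-0.42, limma adjusted p 0.062) and Hk1 (0.34, adjusted p 0.055). Ero1a lost its incision call with processed signals (0.34, adjusted p 0.13), Cy5 alone (0.24), only the compared groups (0.058), trend and robust (0.075) and both slide blocks (0.8 fixed, 0.054 random), and its inhibitor call with scaling between arrays (-0.26, adjusted p 0.13), Cy5 alone (0.063), only the compared groups (0.12), trend and robust (0.11) and slide as a fixed block (0.11). No called difference of the 10 genes changed sign, and Hk1 for the inhibitor stood at 0 in the deposited table, against 0.34. The causes of these shifts were not tested. Over all genes, the 13 processing alternatives called 0 to 438 genes for the mimic, 536 to 2138 for the inhibitor and 11 to 3211 for the incision. For the difference, 12 of them called 17 to 359. With 1 array left out, 1 to 246 genes were called for the mimic, 1099 to 2095 for the inhibitor, 1695 to 3082 for the incision and 64 to 417 for the difference. Except for the incision with slide as a fixed block, these totals are ranges, so a count of the 10 is not set beside the total of its own fit. In simulated data for the incision, 85% of changes of 1 on the log2 scale were recovered with 3 arrays a group. Smaller changes and slide effects were not simulated.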
